A study of Mus musculus with 4 samples.

Results

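The collagen genes were taken as the autosomal protein-coding genes of mm10 whose symbol is Col, a number, a and a number. The rule gave 42 of 20807 autosomal protein-coding genes, of which 9 encode fibrillar chains (types 1, 2, 3, 5 and 11), 4 encode the type 4 chains of basement membranes, and 29 belong to other types. A further 2 collagen genes, Col4a5 and Col4a6, lie on X and were left out. The rule reads the symbol alone and uses no measured value. CTCF ChIP-seq had been carried out on heart tissue of female B6CASTF1/J mice aged 2 months, an F1 hybrid strain with no further allele or treatment named. The groups are pool G and pool H, each made from 2 heart biosamples and sequenced as 2 technical libraries. No control tissue or second condition was compared. Read totals are not part of these lists, which leaves the depth unknown, and the spread between animals can be seen only as the difference between the 2 pools. Heart tissue mixes muscle cells, fibroblasts, vessel cells and others, and in such bulk tissue fewer cells of a type and less binding per cell cannot be told apart. The tissue label was not checked, since the lists measure binding and hold no marker expression.

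Collagens are trimers of chains that carry long runs of a repeating glycine-containing triplet. Fibrillar chains assemble into the ropes that give tissue its tensile strength, and in the heart the matrix of types 1 and 3 is made mainly by fibroblasts. Type 4 chains form the sheet-like network under endothelium and around each heart muscle cell, and their genes lie in pairs that start next to each other and run in opposite directions. CTCF is a zinc finger protein that binds a long, asymmetric DNA motif and, with cohesin, helps to set the ends of chromatin loops. The direction of its motif is known to bear on which pairs of sites form loops.

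Matches to the CTCF core found within 100 bp of collagen summits are shown first, to let the words be compared. Each line gives 30 bases of the reference assembly GRCm38.p6 (RefSeq), read along the strand that holds the CTCF core, with the 12 bases of the core in capitals. The same capitals stood under a summit in Col1a1, Col3a1, Col5a2 and Col4a4.
Col1a1 intron 1: tcaaggcaaCCACTAGGTGGCgggcaaaac
Col3a1 intron 1: ctttgttagCCACTAGGTGGCatggtttag
Col5a2 intron 6: tgtggatggCCACTAGGTGGCaaactttaa
Col4a4 intron 4: gagaagacgCCACTAGGTGGCactgcaata
The 4 sites lie at chr11:94937167-94937196 and chr1:45314125-45314154 on the minus strand, and at chr1:45432066-45432095 and chr1:82554520-82554549 on the plus strand. In all 4 the core ran against the direction of transcription. Its centre lay 74.5 bp from the summit in Col1a1 and 26.5, 13.5 and 6.5 bp from it in Col3a1, Col5a2 and Col4a4, so the Col1a1 word was well off its summit. The word CCACTAGGTGGC lay under 556 autosomal summits of the list in all, with a median signal of 658, and the 4 collagen summits with it had signals of 445 to 767.

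A second set shows the type 4 genes, namely the summit that Col4a1 and Col4a2 share, the strongest summit of Col4a2 and the single summit of Col4a3.
Col4a1 and Col4a2 shared start: ccgggcgcgCCACCATGGGGCcccggctca
Col4a2 intron 4: cagtagccaACACCAGGTGGCagtcattct
Col4a3 gene body: ccaatttcgCCACCAGGGGGCggtcttgtt
They lie at chr8:11312584-11312613, chr8:11392968-11392997 and chr1:82641857-82641886, all on the minus strand. The shared start and the Col4a2 intron differ from the core at 1 base, whereas the Col4a3 word matches it fully. Over all autosomal summits the word of the shared start lay under only 5, that of the Col4a2 intron under 43 and that of Col4a3 under 664. The shared-start summit lies in a coding exon of Col4a1, and whether CTCF binds the word found near it was not tested. The word at the shared start lay 44.5 bp from its summit, and those of the Col4a2 intron and of Col4a3 12.5 and 4.5 bp from theirs.

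A further set shows the word found most often under collagen summits, CCAGAAGAGGGC, in sequence that the assembly marks as repetitive by soft-masking.
Col8a2 intron 2: ccacagtggCCAGAAGAGGGCatcagatcc
Col4a2 intron 4: cacaggtggCCAGAAGAGGGCatcacatcc
Col24a1 intron 23: ccgtggaggCCAGAAGAGGGCactagatcc
They lie at chr4:126306235-126306264, chr8:11355236-11355265 and chr3:145408233-145408262, all on the plus strand. This word lay under 11 collagen summits, 10 of them soft-masked, with a median signal of 242. Over all autosomal summits it lay under 6572, of which 92.7% were soft-masked, with a median signal of 162. The median of the whole list was 286, and 1652 of the 6572 summits with this word reached it, as did 483 of the 556 with the word of the Col1a1 and Col3a1 sites.

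More collagen genes carried CTCF in their bodies than near their starts, but the bodies are far longer than the windows around starts. A promoter summit, meaning the highest point of a peak within 1 kb of any annotated transcription start site (TSS), was found at 14 of 42 collagen genes (33.3%, exact 95% interval 19.6 to 49.5), beside 35.7% of all autosomal protein-coding genes. A gene-body summit, inside the gene and further than 1 kb from each of its TSSs, was found at 34 of 42 collagen genes (81.0%, interval 65.9 to 91.4), beside 42.3% of all genes. Collagen genes are long, with a median of 111 kb against 17.6 kb for all genes, and the count is set against genes of like length further on. The list was the authors' conservative list, made from both pools, and the signal is the authors' peak score without a stated unit. The intervals cover counting error over genes only.

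By class, a promoter summit stood at 5 of 9 fibrillar, 2 of 4 type 4 and 7 of 29 other genes. A gene-body summit stood at 6 of 9 fibrillar, 4 of 4 type 4 and 24 of 29 other genes. The exact intervals of the promoter shares were 21.2 to 86.3% for fibrillar, 6.76 to 93.2% for type 4 and 10.3 to 43.5% for other genes. They are wide and overlap, and the classes were not compared by a test, so the counts are a description. Both kinds of summit were found at 10 genes, a gene-body summit alone at 24, a promoter summit alone at 4 and neither at 4. The genes with neither were Col11a2, Col6a1, Col9a3 and Col10a1, beside 42% of all genes. The summits numbered 143, of which 22 were promoter and 121 gene-body summits.

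**Figure D1:**
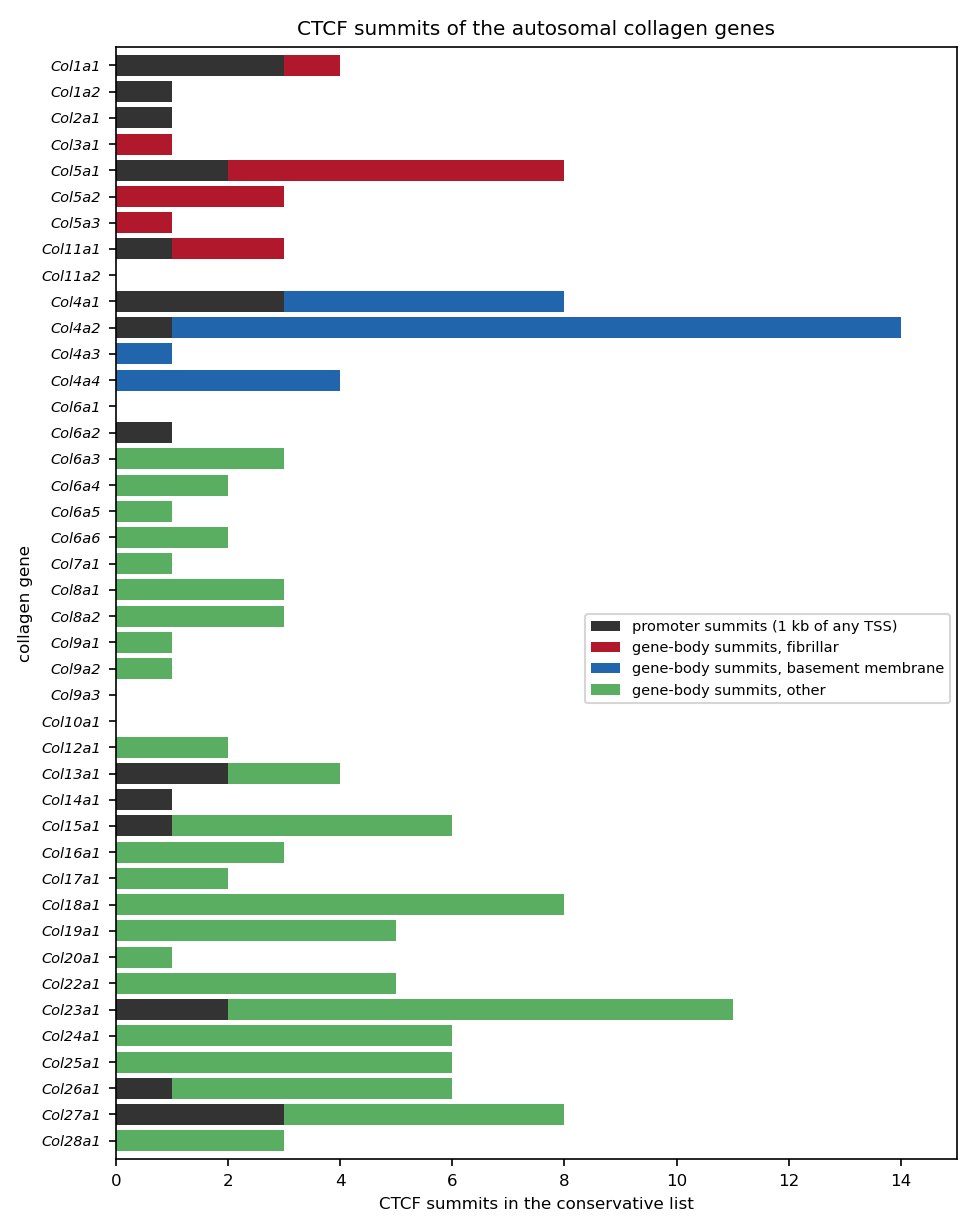
Number of CTCF summits in the conservative list (x axis) for each of the 42 collagen genes (y axis), with promoter summits in black and gene-body summits coloured by class; the summit shared by Col4a1 and Col4a2 is drawn for both. Col4a2 has the longest bar, with 13 gene-body summits and 1 promoter summit, and 4 genes have none.

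Many of the promoter calls rested on starts inside the gene. At the 5′ end of the gene record itself, 8 of 42 collagen genes had a summit within 1 kb, namely Col1a1, Col5a1, Col4a1, Col4a2, Col6a2, Col15a1, Col23a1 and Col27a1, beside 28% of all genes. Within 1 kb of the start of a protein-coding transcript the count was 10. Col2a1, Col11a1, Col13a1 and Col26a1 were called through retained-intron or processed transcripts alone. A promoter summit at or above the list's median signal stood at 8 collagen genes, beside 18.5% of all genes, of which 3 were fibrillar, 5 other and 0 type 4. The members just inside the 1 kb limit were Col5a1 at 905 bp, Col4a1 at 887 bp and Col1a1 at 849 bp from the nearest TSS. Just outside it were summits of Col4a2 at 1094 and 1141 bp, Col6a3 at 1170 bp and Col26a1 at 1177 bp.

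CpG content varied with these calls. Collagen gene starts were poorer in CpG than others, with a median observed-to-expected ratio of 0.43 against 0.57 for all genes in a window of 1 kb around the 5′ end. Among collagen genes of at least 10 kb, a summit at the gene 5′ end stood at 6 of 12 with a ratio of at least 0.6 and at 2 of 29 below it. Over all genes the shares were 44.5% and 13.2%, with genes of every length counted. The part of CpG content in the collagen counts was not tested.

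The fibrillar genes of the most abundant heart collagens each held a summit shortly after the start of the gene. Col1a1, which encodes the main chain of type 1 collagen, had summits 883 and 3239 bp into the gene with signals of 767 and 771. Their matched calls were 397 in pool G and 378 in pool H for the first, and 391 and 380 for the second. The first is in intron 1, with the core against transcription, and the second in intron 6, with the core along it. Both are among the strongest collagen summits of the list. Further summits of Col1a1 followed at 6270 bp with a signal of 570 and at 8295 bp with 225, with calls of 316 in pool G and 249 in pool H and of 133 and 91.8. The gene is 16.8 kb long, and thus held 4 summits in its first 8295 bp and none after.

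Col1a2 and Col3a1 each held 1 summit, in intron 1. Col1a2, the partner chain of type 1, had its summit 1603 bp into the gene, with a signal of 459 and calls of 252 in pool G and 211 in pool H. It counted as a promoter summit because both a protein-coding and a retained-intron transcript start within 1 kb, the retained-intron one 715 bp before it, and an unclassified gene record, Gm43921, also starts there. Col3a1, the chain of type 3 collagen, had its summit at 2575 bp, with a signal of 445 and calls of 231 in pool G and 206 in pool H. Both cores ran against transcription, as did that of the first Col1a1 summit. At the 5′ ends of the gene records of Col1a2 and Col3a1 no summit of the list lay within 1 kb.

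The minor fibrillar chains differed more among themselves. Col5a1, whose chain is built into type 1 fibrils and limits their width, had a weak summit 480 bp before its start (signal 91.0) and a stronger one 905 bp after it (signal 429, calls 245 in pool G and 188 in pool H). It had 6 further gene-body summits with signals of 359 to 662. The weak upstream summit had no match within 100 bp in either pool's own thresholded list. Col5a2 had no promoter summit, and its gene-body summits lay at 1692, 54250 and 71215 bp with signals of 326, 184 and 682. Their calls were 182, 108 and 358 in pool G and 145, 76.3 and 324 in pool H. Of the 3, the summit furthest into the gene was the strongest in both pools. Col5a3 had a single summit at 10657 bp in intron 8, with a signal of 784 and calls of 414 in pool G and 368 in pool H.

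The cartilage chains ranged from 0 to 3 summits. Col2a1, the main cartilage collagen, had 1 summit at 3301 bp with a signal of 105 and calls of 60.3 in pool G and 41.2 in pool H. It had no match within 100 bp in the thresholded list of pool H. Col11a1 had summits at 2014, 76760 and 116806 bp with signals of 345, 278 and 252, the last of them beside the start of a retained-intron transcript. Their calls were 186, 155 and 145 in pool G and 158, 123 and 109 in pool H. Col11a2 had no summit in the gene, and the nearest lay 5103 bp before its start with a signal of 611. Col2a1 and Col11a2 were thus the fibrillar genes with the least CTCF.

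Taken by position, 7 of the 9 fibrillar genes had a summit in their first 5 kb, all but Col5a3 and Col11a2. Over all autosomal protein-coding genes of at least 10 kb the share was 28.6%. Of the type 4 genes 1 of 4 had one, and of the other collagen genes of that length 12 of 28. In the 5 kb before the start, 1 of 9 fibrillar genes and 9 of all 41 collagen genes of that length (22.0%) had a summit, beside 31.2% of all genes. The 5 kb window was set after these positions had been seen, so the count is a description. Those 7 genes held 8 such summits, 5 with a core, and 4 of the 5 cores ran against transcription, beside 46.8% of cores in the same stretch of all genes. The exception was the second Col1a1 summit.

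**Figure D2:**
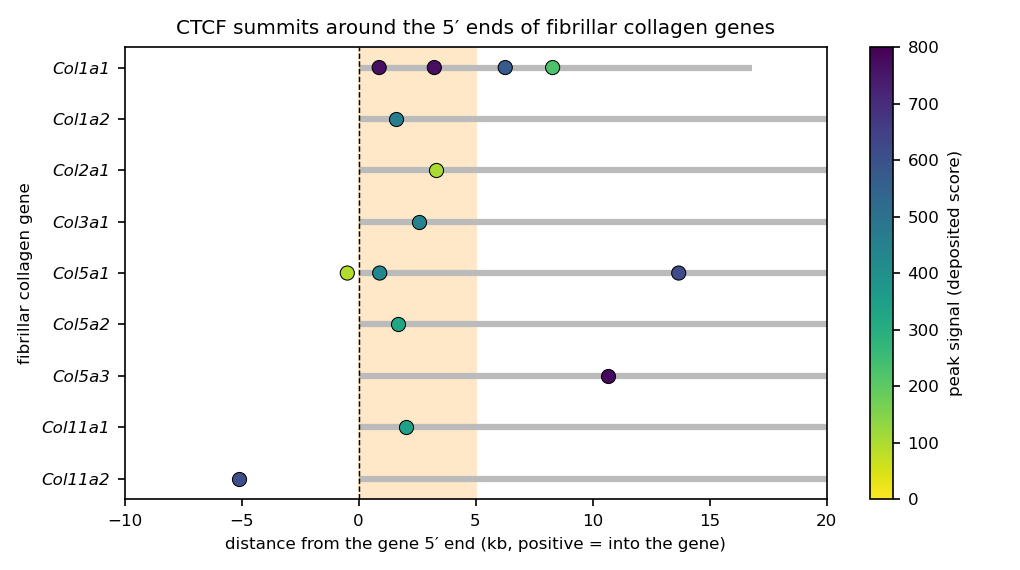
Position of CTCF summits from 10 kb before to 20 kb after the 5′ end of each fibrillar collagen gene (x axis, kb; grey bars are the genes, cut at 20 kb), with colour giving the peak signal and the shaded band the first 5 kb of the gene. In 7 of 9 genes at least 1 summit falls in the band, whereas Col5a3 and Col11a2 have none there.

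The type 4 genes form 2 divergent pairs that differed at their shared starts. Col4a1 and Col4a2, which encode the chains of nearly all basement membranes, overlap by 22 bp at their 5′ ends on chromosome 8 and shared 1 summit, 272 bp into Col4a1 and 251 bp before Col4a2. The peak spans chr8:11312449-11312635, and its summit lies in the first coding exon of Col4a1. Its signal of 120, with calls of 75.4 in pool G and 42.1 in pool H, was well below the list's median of 286. Col4a3 and Col4a4, whose chains are best known from the filter of the kidney, start 72 bp apart on chromosome 1. Within 1 kb of those starts there was no summit in the conservative list and no candidate in the ranked list of all called peaks.

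Summits near such a shared start were common in the genome. Of 1664 head-to-head pairs of protein-coding genes with 5′ ends within 5 kb, 45.6% had a summit within 1 kb of the gap, and of 1170 pairs within 1 kb, 44.8% did. Apart from the type 4 pairs, 1 more collagen gene, Col5a3, was in such a pair, 3436 bp from Rdh8, without a summit. Of the 5 collagen genes in head-to-head pairs 2 had a promoter summit, beside 46.9% of all genes in such pairs.

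Inside the genes the type 4 chains differed as well. Col4a2 had 13 gene-body summits, the most of any collagen gene, and 98.4% of the 1419 genes of 100 to 200 kb had fewer. Of these 13, the strongest lay 80190 bp into the gene in intron 4, with a signal of 829 and calls of 438 in pool G and 392 in pool H. A group of 4 lay between 107060 and 118058 bp with signals of 688, 671, 242 and 579. The weakest of the 13, at 129605 bp, had a signal of 17.1 and was matched to the same pool calls as the summit at 129398 bp. Of the 13, 5 had a match within 100 bp in neither or only 1 of the pools' own lists.

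Col4a1 had 5 gene-body summits, the strongest at 59135 bp with a signal of 816 (calls 443 in pool G and 379 in pool H) and at 97353 bp with 634 (calls 332 in pool G and 301 in pool H). Beside the shared summit it had promoter summits at 1024 bp (signal 81.4) and at 33513 bp (signal 152), the second at the start of an internal coding transcript. Col4a4 had 4 gene-body summits with signals of 114, 485, 446 and 770, of which the last had calls of 425 in pool G and 342 in pool H. Col4a3 had 1, at 54955 bp, with a signal of 823 and calls of 434 in pool G and 391 in pool H. Together the type 4 genes held 4.39 gene-body summits per 100 kb, the fibrillar genes 2.10, the other collagen genes 2.30, and all autosomal protein-coding genes 2.36. The type 4 rate rests on Col4a2, since Col4a3 alone had 0.740 per 100 kb and Col4a2 9.53.

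**Figure D3:**
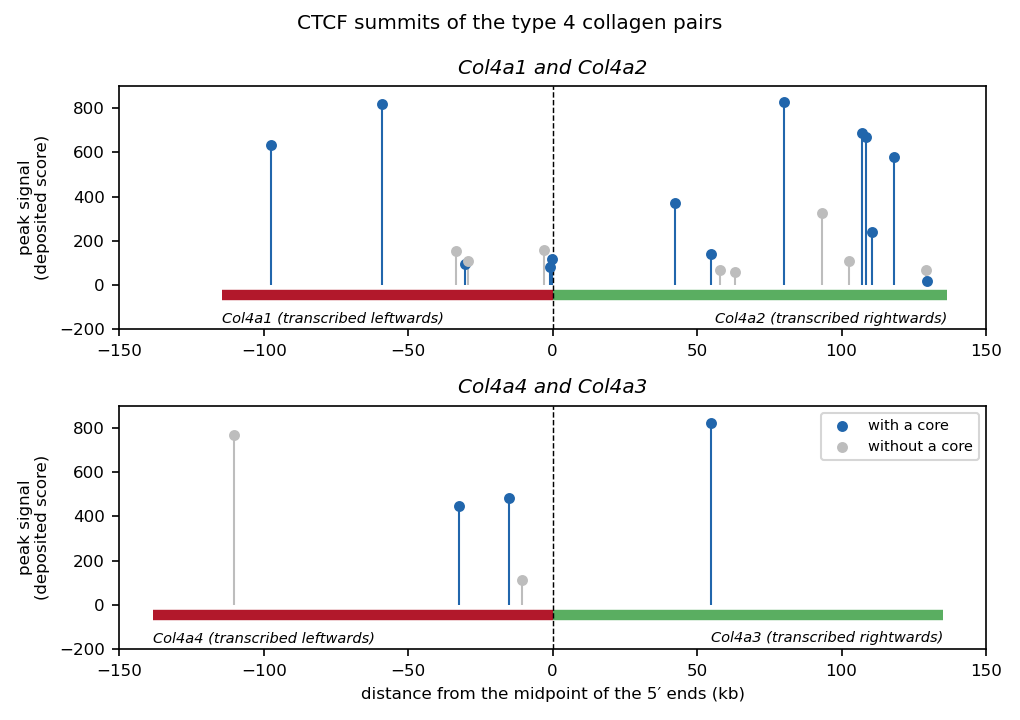
Peak signal (y axis, deposited score) of each CTCF summit against its distance from the midpoint of the 5′ ends (x axis, kb) for Col4a1 with Col4a2 and for Col4a4 with Col4a3, with the genes drawn as bars and blue marking summits with a CTCF core. The upper pair has a summit of 120 at its shared start and many summits to the right in Col4a2, whereas the lower pair has none at its start and 5 in all.

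Among the other types, 5 of 29 genes had a promoter summit at or above the list's median, beside the 18.5% of all genes, and 6 of their 11 promoter summits reached it. Col6a2, a chain of the beaded filaments around cells, had its only summit 195 bp into the gene with a signal of 536 and calls of 288.01 in pool G and 248 in pool H. Its neighbour and partner chain Col6a1 had none in the gene, and its nearest lay 2412 bp before its start with a signal of 540. Col6a3, another main chain of those filaments, had gene-body summits alone, with signals of 696, 108 and 128. The main chains of type 6 collagen therefore had 3 different layouts.

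Col23a1, Col13a1, Col25a1 and Col17a1 encode collagens that span the cell membrane. Col23a1 had a summit 295 bp before its start, with a signal of 733 and calls of 405 in pool G and 329 in pool H, a weak one 399 bp after it (signal 97.4), and 9 gene-body summits. Col13a1 had summits at 1828 bp (signal 176) and at 101111 bp (signal 747), both called through non-coding transcripts, and its nearest upstream summit lay 1513 bp before its start with a signal of 775. Col25a1 and Col17a1 had gene-body summits alone, 6 and 2. Promoter summits in this group thus ranged from strong to none.

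Col27a1 and Col24a1, which by structure are fibril-forming chains although the classes used here place them among other types, also differed. Col27a1 had promoter summits 34 bp before its start (signal 173), at 1299 bp (signal 749) and at 2126 bp (signal 419), with calls for the second of 391 in pool G and 354 in pool H. Col24a1 had none, and the first of its 6 gene-body summits lay 72937 bp into the gene. Col26a1 had its promoter summit at 127303 bp, beside the start of a retained-intron transcript, with a signal of 727 and calls of 395 in pool G and 341 in pool H. The 5 gene-body summits of Col26a1 reached a signal of 811.

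The related chains Col15a1 and Col18a1, whose cleaved ends include endostatin in the case of Col18a1, had 5 and 8 gene-body summits. Col15a1 also had a weak promoter summit at 803 bp with a signal of 142 and calls of 89.1 in pool G and 55.5 in pool H, and the start of an antisense gene, Gm12426, lies within 1 kb of it. The strongest summit of all collagen genes, with a signal of 830 and calls of 435 in pool G and 397 in pool H, was 35786 bp into Col18a1. No promoter summit was found at Col18a1.

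Chains that sit on the surface of other fibrils had summits mostly in their bodies. Col14a1 had 1 summit, at 141415 bp beside the start of a shorter coding transcript, with a signal of 102 and calls of 61.4 in pool G and 40.3 in pool H. Col12a1 had summits at 1712 and 4191 bp with signals of 492 and 141. Col9a1 and Col9a2 had 1 gene-body summit each, with signals of 611 and 645, Col9a3 had none, Col16a1 had 3, of up to 827, and Col20a1 had 1, of 690. Col19a1 and Col22a1 had 5 each, of up to 559 and 341. Col14a1 stood apart in that its 213 kb held no gene-body summit, where 94.1% of genes over 200 kb had at least 1. Its 1 summit does lie inside the gene but counted as a promoter summit because of the shorter transcript.

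The remaining genes were Col7a1, Col8a1, Col8a2, Col10a1 and Col28a1, with Col6a4, Col6a5 and Col6a6. Col7a1, which forms the fibrils that anchor skin, had 1 weak summit of 71.3, and Col10a1, the collagen of cartilage that turns to bone, had none. Col8a1, Col8a2 and Col28a1 had 3 gene-body summits each, with highest signals of 778, 518 and 596. Col6a4, Col6a5 and Col6a6 had 2, 1 and 2. No promoter summit was found at any of these 8 genes.

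Of the 28 collagen genes without a promoter summit, 11 (39.3%) had a candidate within 1 kb of a TSS in the ranked list of all called peaks, beside 45.9% of all such genes. These candidates had signals of 15.2 to 76.1. The strongest were at Col19a1 (signal 76.1, calls 40.0 in pool G and 37.7 in pool H) and Col8a1 (signal 74.2, calls 34.0 in pool G and 40.8 in pool H). All 11 were thus far below the median of the conservative list.

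Set against genes of like length, the share of collagen genes with a gene-body summit was closer to that of all genes. Such summits stood in 18 of 18 collagen genes of 100 to 200 kb, beside 90.1% of all genes of that length, and in 5 of 6 over 200 kb, beside 94.1%. They stood in 3 of 3 of 50 to 100 kb, beside 79.1%, in 6 of 10 of 25 to 50 kb, beside 58.6%, in 2 of 4 of 10 to 25 kb, beside 36.8%, and in 0 of 1 under 10 kb, beside 9.72%. Promoter summits stood at 8 of 18 collagen genes of 100 to 200 kb, beside 52.9% of all genes of that length, at 2 of 6 over 200 kb, beside 51.5%, and at 0 of 3 of 50 to 100 kb, beside 47.6%. They stood at 3 of 10 of 25 to 50 kb, beside 40.8%, at 1 of 4 of 10 to 25 kb, beside 36.7%, and at 0 of 1 under 10 kb, beside 23.1%. The gene-body rate was 2.50 per 100 kb of collagen gene against 2.36 for all genes. The promoter share of collagen genes was below that of all genes in every bin, whereas the gene-body share was above it in some bins and below it in others. With these few genes in a bin, neither share can be separated from that of all genes within a bin. The bins were not pooled, and no test was made across them.

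**Figure D4:**
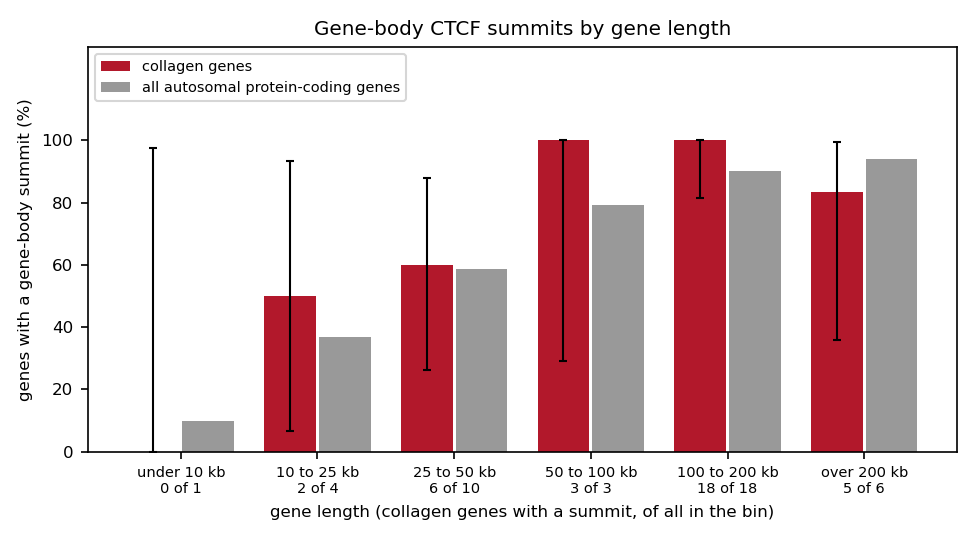
Share of genes with a gene-body CTCF summit (y axis, %) by gene length (x axis) for the collagen genes (red, with exact 95% intervals) and all autosomal protein-coding genes (grey). In each of the 6 bins the grey bar ends within the interval of the collagen genes, and these intervals are wide.

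The gene-body summits of collagen genes were on average stronger than those elsewhere. Their median signal was 374, against 267 for the gene-body summits of all protein-coding genes, and 72 of 121 (59.5%) were at or above the list's median, beside 47.7%. The fibrillar genes had 12 of 14 such summits at or above it, the type 4 genes 12 of 23 and the other genes 48 of 84. Promoter summits did not stand out in this way, with a median of 238 against 241 and 10 of 22 at or above the list's median, beside 44.9%. Summits of 1 gene share their locus, so no test was made of these differences.

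Nearly all gene-body summits were intronic. An intron held 115 of 121 (95.0%), beside 90.1% in all genes, a coding exon 2, beside 3.62%, and an exon outside the coding sequence 4. The 2 gene-body summits in coding exons were in Col16a1 and Col6a3. Cut into 5 equal stretches from start to end, the genes held 24, 21, 25, 26 and 25 summits. Over all genes the first stretch held 17.6% and the last 23.5%.

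The CTCF core, a 12-base consensus of the binding motif, was searched on both strands within 100 bp of each summit, allowing 1 mismatch. It was found at 96 of 143 collagen summits (67.1%, exact 95% interval 58.8 to 74.8), beside 65.9% of all autosomal summits and 5.58% of positions 1 kb away from them. By position it was at 84 of 121 gene-body summits (69.4%), beside 70.2%, and at 12 of 22 promoter summits (54.5%), beside 38.9%. The promoter summits are few, and 6 of the 14 genes with one had it only away from the gene 5′ end. No interval was computed for the promoter share, so it is a description. Collagen summits with the core had a median signal of 462 and those without it 195. Over all autosomal summits the medians were 363 with and 192 without it. A window without the core says only that these letters are not in it.

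Among gene-body summits with a core, the core ran along the gene at 39 and against it at 45, beside 49.6% along it in all genes. For fibrillar genes these counts were 4 and 6, for type 4 genes 5 and 9, and for other genes 30 and 30. Summits in soft-masked sequence were the weaker ones. The 22 soft-masked summits with a core had a median signal of 204 and the 74 others with a core 540. Soft-masked sequence held 24 of 143 collagen summits (16.8%), beside 21.8% of all autosomal summits.

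Both pools showed the collagen summits. Of the 143, the thresholded list of pool G held a summit within 100 bp for 129 and that of pool H for 127, with 120 in both and 7 in neither. Of the 23 missing in at least 1 pool list, 17 had signals under 120 and 6 had signals of 750 or more. The strong ones were in Col1a1, Col4a1, Col4a3, Col5a3, Col16a1 and Col26a1, and each had a matched call in both pools in the ranked list. At the 120 found in both, the matched calls equalled the values of the pools' own lists. Strong and weak summits alike could thus lack a match within 100 bp in 1 pool's list. Whether such a peak missed the pool's threshold or had its summit further away was not tested. A second list made from both pools held a match within 100 bp for 137 of the 143. Of the 6 strong summits named here, only that of Col1a1 had such a match.

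The pool G call was higher than the pool H call at 141 of 143 summits, with a median ratio of 1.20, beside 1.23 over the whole conservative list. The ratio moves with the depth of each pool, which is unknown, so it does not give a difference in binding. Leaving aside 1 summit of Col23a1, whose pool H call was that of a stronger summit in the same peak, the ratios ran between 0.98 and 1.79. The conservative list keeps peaks that rank alike in both pools, so likeness between the pools at these summits follows from how the list was made.

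**Figure D5:**
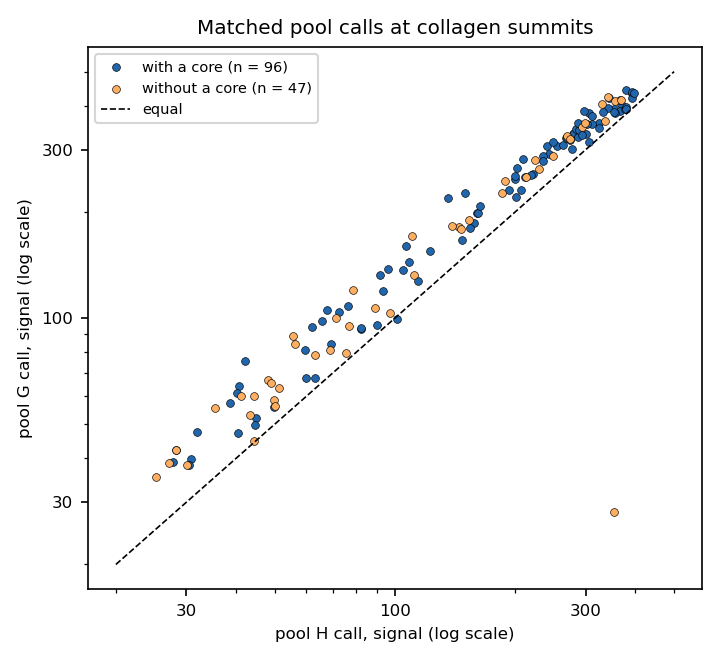
Signal of the matched pool G call (y axis, log scale) against that of the matched pool H call (x axis, log scale) for the 143 collagen summits, in blue with and in orange without a CTCF core. Nearly all points lie just above the dashed line of equal values, at a median ratio of 1.20, and the single point far below it is the Col23a1 summit described in the text.

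Of the 5 pairs of neighbouring collagen genes that are not head to head, 2 had a summit between the genes. Col3a1 and Col5a2, which end towards each other 24.6 kb apart, had no summit between them, and the nearest on either side, in Col3a1 intron 1 and Col5a2 intron 6, were 118 kb apart. Those are the sites with the shared word shown above, with their cores pointing away from each other. Col9a1 and Col19a1, 9205 bp apart, and Col6a2 and Col6a1, 85.2 kb apart, also had none between them. Between Col6a6 and Col6a5 there was 1 summit (signal 211, calls 123 in pool G and 90.8 in pool H). Between Col6a5 and Col6a4 there was 1 (signal 489, calls 268 in pool G and 226 in pool H), 1255 bp from the end of Col6a4. Long stretches without a summit are usual: 52.4% of the autosomal sequence between summits lies in gaps at least as long as the one over Col3a1 and Col5a2.

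The genes that make, cross-link, bind and degrade collagen were examined as 6 lists. Together 33 of their 69 genes (47.8%) had a promoter summit, beside the 35.7% of all genes. The lists were not matched for gene length, and no interval was computed for the pooled share. Over all genes the share was 23.1% under 10 kb and 52.9% at 100 to 200 kb. Of the genes for prolyl and lysyl modification and folding 11 of 19 had one, the strongest at P3h4 (signal 712), P4ha1 (698) and P3h1 (644), of which P4ha1 encodes the catalytic chain of a prolyl hydroxylase. Of those for procollagen processing and cross-linking 5 of 13 had one, led by Bmp1 (601), the protease that trims the procollagen end, with Pcolce2 (169) and Adamts2 (133).

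Of the collagen receptors 5 of 10 had a promoter summit, the strongest at the integrin genes Itga2 (575), Itga10 (549) and Itgb1 (488). Of the genes for degradation and its inhibitors 5 of 8 had one, at Mmp9 (751), Timp2 (725) and Timp3 (706) among others. Those of Mmp9 and Timp3 lay further than 1 kb from the gene 5′ end. Within 1 kb of that end, 3 of the 8 genes had a summit. Of the fibril-associated proteoglycans 2 of 7 had a promoter summit, Fmod (170) and Ogn (100.1). The basement membrane partners had one at 5 of 12, led by the laminin genes Lama1 (495) and Lamc1 (384) and by Agrn (217). The exact 95% interval of each list's share held the 35.7% of all genes.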

How the data were processed

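CTCF ChIP-seq peaks of heart tissue were analysed from the peak lists on mm10, per the labels. The authors deposited the signal of each peak without a stated unit, and a score that is the IDR (irreproducible discovery rate) scaled so that 540 stands for 0.05 and 830 for 0.01. Each thresholded list was made from pool G, pool H or both pools, per the deposited readme texts. The names of the aligner and peak caller were not given in the sources used here. Signals were read within a list only, and the pool G and pool H calls of a summit are those matched in the authors' ranked list. The pools' own thresholded lists were planned for this and lack some summits, and where both held one the values were equal.

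Summits were assigned to genes and TSSs of GENCODE M21, with intron numbers from the transcript with the longest coding sequence. The genome was GRCm38.p6, the reference strain's sequence, whereas the mice were F1 hybrids. Tables were handled with pandas 2.3.3 and numpy 2.4.6 in Python 3.11.15, intervals came from scipy 1.17.1, and figures from matplotlib 3.10.9. The assignment of summits and the search for the core were tested on simulated data. With no second condition and 2 pools, no test was made: counts stand beside the share of all autosomal protein-coding genes, with exact (Clopper-Pearson) 95% intervals. Read depth is unknown. The alternatives changed the list, the IDR threshold, the promoter width, the TSS set, the peak strength, the distance of head-to-head pairs and the core search. The members, gene lists and named genes (all fibrillar and type 4 genes, neighbouring pairs, the strongest promoter summits of other types, the genes with most gene-body summits, and up to 3 genes of each pathway list) were chosen with earlier results of these data known.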

Additional observations from a re-analysis of the deposited data

Results flagged for a closer look

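A pair of strong peaks inside collagen genes was outside the lists used for the counts. In intronic sequence of Col15a1, 47692 bp into the gene, the ranked list of all candidates holds a peak with a signal of 816 and calls of 413 in pool G and 401 in pool H. Its scaled IDR was 498, short of the 540 that the conservative list requires. In Col22a1, 116399 bp into the gene, a candidate had a signal of 813 with calls of 446 in pool G and 370 in pool H and a scaled IDR of 399. The second of these stood in the thresholded list of pool G. Both lie above the conservative list's median signal of 286, and on the autosomes 424 candidates at or above that median were outside the list. With them the gene-body summits of Col15a1 and Col22a1 would each be 1 more.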

How the results depend on the processing

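All collagen promoter and gene-body counts stayed within 1.5 times their value in the pool G list, the pool H list, the second list of both pools and at an IDR of 0.01. Leaving out 1 pool gave 14 to 15 collagen genes with a promoter summit, 4 to 5 of them fibrillar, 2 type 4 and 8 other, 32 to 33 with a gene-body summit, 116 to 127 such summits, and a core share of 61.7 to 68.1%. With 1 TSS per gene the promoter counts were 8 for all collagen genes, 2 fibrillar and 4 other, and 4 at or above the median signal. Within 5 kb they were 28 for all, 19 other and 24 at or above the median, and within 500 bp the last was 5. Peaks at or above the median signal gave 8 collagen genes, 3 fibrillar, 0 type 4, 0 of head-to-head pairs, and 72 gene-body summits. Starts of protein-coding transcripts alone, an alternative chosen after seeing the data, gave 3 fibrillar genes. The exact core was at 28.7% of summits. No paired analysis was possible because no test was made and the replicate numbers shared by the pools mark technical libraries. The unknown read depth limits any statement on weak or missing peaks.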

Other observations

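A summit in the 5 kb before the gene stood at 9 of 41 collagen genes of at least 10 kb (22.0%), beside 31.2% of all genes of that length. Examples outside the 1 kb window stood 1513 bp before Col13a1 (signal 775, calls 410.06 in pool G and 367.3 in pool H), 1300 bp before Col14a1 (signal 761, calls 415 in pool G and 352 in pool H), and 2412 bp before Col6a1 (signal 540, calls 291 in pool G and 253 in pool H). Col11a2 and Col9a1 had one beyond those 5 kb, at 5103 bp (signal 611) and 5951 bp (signal 671). These positions were picked after their values had been seen. At the other extreme, Col24a1 and Col19a1 had no summit within 72.9 and 46.5 kb of their 5′ ends. The longest stretch without a summit at the end of a collagen gene ran for 957.7 kb over the 3′ end of Col11a1, and 12.1% of the autosomal sequence between summits lies in gaps at least as long.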
